A study of Canis lupus familiaris with 222 samples.

Results

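Canine mammary tumors (CMTs) that the study had placed in the expression cluster NMF3 include 8 simple or complex carcinomas, and the transcriptomes of these 8 were compared with those of the 64 simple or complex carcinomas in the cluster NMF1. The members were taken from the sample annotation published with the study, by cluster and histology. They are 8 of the 18 NMF3 tumors and 8 of all 158 sequenced CMTs. The other 10 NMF3 tumors are 7 of sarcoma-like histologies (osteosarcoma, carcinosarcoma, fibrosarcoma and spindle cell carcinoma) and 3 benign tumors. Leaving these out asks what separates the carcinomas of the cluster that look, by histology, like those of NMF1. RNA-seq had been run on naturally occurring tumors from female dogs and on 64 pieces of nearby normal mammary gland, 1 library per tissue, and 1 expression value per gene and library was deposited. NMF, non-negative matrix factorization, sorts tumors by patterns of expression that they share.

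The NMF3 carcinomas were 4 complex carcinomas (CMT-153, CMT-301, CMT-440 and CMT-538), 3 tubulopapillary simple carcinomas (CMT-109, CMT-210 and CMT-306) and 1 solid simple carcinoma (CMT-318). Their dogs were 10 to 17 years old, 7 intact and 1 neutered. The annotation gives 4 of them the basal class (CMT-109, CMT-153, CMT-318 and CMT-538) and 4 the non-basal class. The NMF1 carcinomas were 39 simple and 25 complex carcinomas, 17 basal and 47 non-basal, from dogs 2 to 19 years old (61 ages given), 41 intact, 21 neutered and 2 with no entry. Surgery fell in 2016 for 2 NMF3 and 13 NMF1 carcinomas, in 2017 for 6 and 43, and in 2018 for 8 NMF1 carcinomas alone. All these tumors arose naturally, the labels give no treatment for any of the dogs, and each tumor comes from a different dog. Adjacent normal tissue was sequenced for 3 of the 8 NMF3 dogs (CMT-210, CMT-301 and CMT-538) and for 25 of the 64 NMF1 dogs.

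Mammary ducts are built of luminal epithelial cells, which line the lumen and make milk, and of contractile myoepithelial cells around them. Simple carcinomas hold malignant epithelium of a single kind, whereas in complex carcinomas the myoepithelium proliferates along with the luminal cells. Basal and non-basal classes, named after the basal-like breast cancers of women, are themselves assigned from expression. No table used here pairs the dog gene identifiers with gene names, so no pathway or cell type list could be applied and the labelled tissue could not be checked against its markers. Genes are therefore described by number, by level and by tumor, and 4 are named by identifier.

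The unit throughout is FPKM, in which the fragments of a gene are divided by its length and by the size of the library. Differences are on log2(FPKM + 1), adjusted for simple or complex histology, over the 14483 genes with a mean of at least 0.5 FPKM in the 72 carcinomas. A gene was called where limma gave a Benjamini-Hochberg adjusted p under 0.05 and a difference of at least 1 on that scale. The clusters had been made by the authors from these same values, so the counts describe how far the groups lie apart and test no cluster.

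Libraries of the NMF3 carcinomas held 54147533 to 92801825 mapped reads, and those of the NMF1 carcinomas a median of 68545951. CMT-318 stood apart from the other 7. It had 11254 genes at 1 FPKM or more against 12317 to 12934 in the others, and its 50 most abundant genes took 58.7% of the summed FPKM against 34.4% to 41.8%. Its mapping rate of 89.95% was also the lowest of the 8. Exact zeros are no reliable sign of absence in this table: in CMT-306, 4 genes with medians between 8743 and 15442 FPKM over the 72 carcinomas were listed at 0.

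A total of 267 genes were called higher in the NMF3 carcinomas, 1.84% of the genes tested, and 2.44% were called lower. The median difference was 1.29 among the higher genes, with a range from 1.00 to 3.53, and -1.36 among the lower genes, with an extreme of -3.37. Over all genes tested the median was -0.14. Of the lower genes, 209 (59.0%) were below the NMF1 median in all 8 tumors, against 5.74% of all genes tested. Of the 267 higher genes, 79 (29.6%) were above the NMF1 median in all 8, against 1.39% of all genes. These shares follow from the calls and are given as a description. No gene separated the groups fully: 0 genes (0%) had all 8 above all 64, and 0 had all 8 below all 64. After each library was scaled to the same upper quartile, the median over all genes moved to -0.04, and 361 genes were called higher and 283 lower. The share of calls that were higher was thus 43.0% as deposited and 56.1% after scaling, so which direction holds more genes depends on scaling.

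Tumor by tumor, the called genes were summarised as the mean difference from the NMF1 carcinoma mean. For the higher genes this mean was 2.02 in CMT-153, 1.99 in CMT-306 and 1.95 in CMT-109. It was 1.70 in CMT-301 and 1.25 in CMT-440, and 1.04 in CMT-538, 1.01 in CMT-210 and 0.78 in CMT-318. The 64 NMF1 carcinomas ran from -1.04 to 1.05 with a median of 0.02, so 5 of the 8 NMF3 carcinomas lay above every NMF1 carcinoma and 3 did not.

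For the lower genes the 8 tumors fell apart by class, which was itself assigned from expression. The genes were chosen on these same tumors, so the split is a description and no independent test. The mean was -2.90 in CMT-153, -1.98 in CMT-318, -1.85 in CMT-109 and -1.77 in CMT-538, the 4 basal tumors. It was -1.08 in CMT-210, -0.96 in CMT-440, -0.80 in CMT-306 and -0.52 in CMT-301, the 4 non-basal tumors. The classes did not overlap, with class means of -2.13 and -0.84, while on the higher genes they did overlap, with class means of 1.45 and 1.48. Of all genes tested, 24.7% (CMT-318), 34.5% (CMT-109), 37.9% (CMT-153) and 46.3% (CMT-538) lay above the NMF1 median in the basal tumors. In the non-basal tumors this share ran from 40.9% (CMT-210) to 53.4% (CMT-301). The split was seen on values as deposited, and whether it holds after scaling was not tested. Among the NMF1 carcinomas the lower genes had a median of -0.31 in the 17 basal and 0.18 in the 47 non-basal tumors. Grade did not sort the 8 in this way, since CMT-109 and CMT-538 were of grade 1 and CMT-318 and CMT-153 of grade 3. With the class as a further covariate, 1.77% of genes were called higher and 1.79% lower, and 91.1% and 95.4% of these were among the calls without it.

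**Figure D1:**
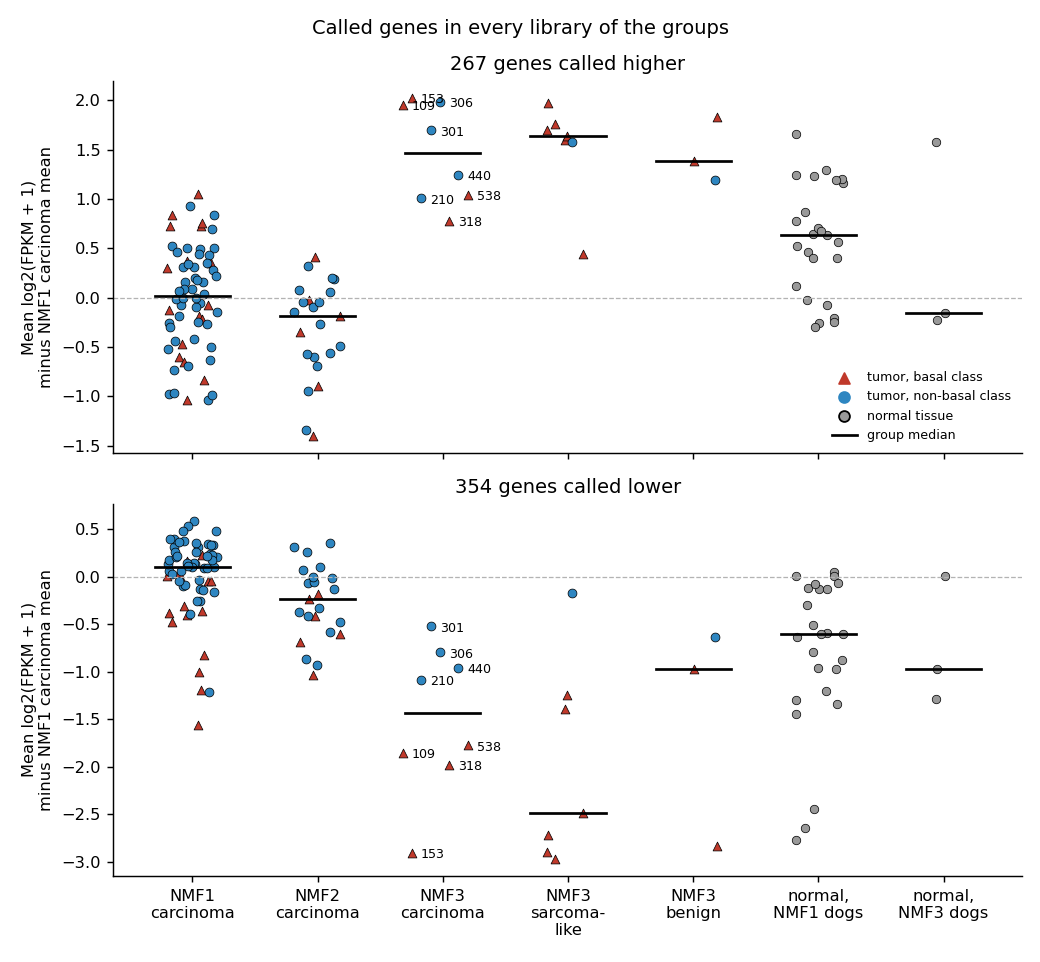
Mean difference of the called genes from the NMF1 carcinoma mean (vertical axis, log2(FPKM + 1)) in every library of 7 groups, above for the genes called higher and below for the genes called lower. Points are libraries, labelled by dog number for the NMF3 carcinomas, and bars are medians. On the lower genes the 4 basal NMF3 carcinomas lie between -2.90 and -1.77 and the 4 non-basal ones between -1.08 and -0.52.

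The difference between both means, higher minus lower, served as a score of how far a library lies towards the NMF3 carcinomas. It was 2.09 to 4.93 in the 8, lowest in CMT-210 and highest in CMT-153, and -1.38 to 2.60 in the NMF1 carcinomas, of which 1 of 64 exceeded CMT-210. That tumor, CMT-118, is a basal complex carcinoma of grade 2. The scores of the 8 and of the 64 are set by the choice of genes. Libraries that did not choose the genes are listed for their levels alone. The 7 sarcoma-like NMF3 tumors scored 1.75 to 4.73 and the 3 benign NMF3 tumors 1.83 to 4.66, within or just below the range of the carcinomas. The 23 NMF2 carcinomas scored -0.92 to 0.82, all below the 8. Normal tissues spread widely, from -0.26 to 4.43 in the 25 NMF1 dogs. In the 3 NMF3 dogs they scored -0.15 (CMT-210), 0.75 (CMT-538) and 2.87 (CMT-301). In bulk tissue, fewer cells of a type and less RNA per cell cannot be told apart.

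The 8 carcinomas were not a tight group. Across the 14483 genes, the mean Pearson correlation over their 28 pairs was 0.833, from 0.755 (CMT-109 with CMT-153) to 0.929 (CMT-301 with CMT-440), against 0.838 between NMF3 and NMF1 carcinomas and 0.885 within NMF1. The gene SD had a median of 0.57 in the 8 and 0.47 in the 64, and was larger in the 8 for 68.5% of genes. These correlations share the genes' general levels and come with no test. Among the other 71 carcinomas of both clusters, of which 64 (90.1%) were NMF1, the nearest was an NMF1 carcinoma for 6 of the 8 (75.0%). For CMT-109 and CMT-318 it was the same one, CMT-346, and for CMT-306 and CMT-538 it was the member CMT-440. CMT-153 was nearer to a sarcoma-like NMF3 tumor (0.884) and to a benign one (0.871) than to any NMF1 carcinoma (at most 0.853). The mean correlation with the benign NMF3 tumors, 0.858, was above that with the sarcoma-like NMF3 tumors, 0.840, and above that with the NMF2 carcinomas, 0.807.

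Simple and complex carcinomas share no tumor, so each gives its own comparison. Among simple carcinomas (4 NMF3, 39 NMF1) 795 of 14444 genes were called, 5.5%, with 419 higher and 376 lower. Among complex carcinomas (4 and 25) 373 of 14419 were called, 2.59%, with 209 higher and 164 lower. Of the 14125 genes tested in both, 127 were called in both and all 127 in the same direction, which is 16.7% of the 760 called in simple and 37.0% of the 343 called in complex carcinomas. The differences had a correlation of 0.411 across those genes, which are not independent of each other, and 63.3% of them had the same sign in both. The same factorization of these values set the cluster in both histologies. The agreement is therefore a description and no independent replication. The joint fit pools both histologies, so the signs of its calls within each are largely set by the choice of genes. Of the genes called lower in it, 244 (68.9%) were lower by at least 1 in both histologies and 0 changed sign. Of the 258 called higher and tested in both, 119 (46.1%) were higher by at least 1 in both, while 10 had a negative difference in complex and 1 in simple carcinomas.

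Single tumors carried much of each count. Without CMT-153, the complex carcinomas gave 21 higher and 2 lower calls in place of 209 and 164. Without CMT-538 they gave 1.62% of genes in place of 2.59%. Without CMT-109 the simple carcinomas gave 111 higher and 192 lower calls, and without CMT-318 they gave 284 and 120. Leaving out CMT-210 or CMT-306, by contrast, raised the simple count to 1109 or 1182. The tumors whose omission lowered the count of their histology by more than 1.5 times were the 4 basal ones. The joint fit moved less, from 209 to 338 higher and 220 to 474 lower calls over the 8 omissions. Without CMT-318, the library that stood apart, it gave 320 higher and 269 lower calls, of which 68.8% and 90.0% were shared with the fit of all 8 tumors.

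**Figure D2:**
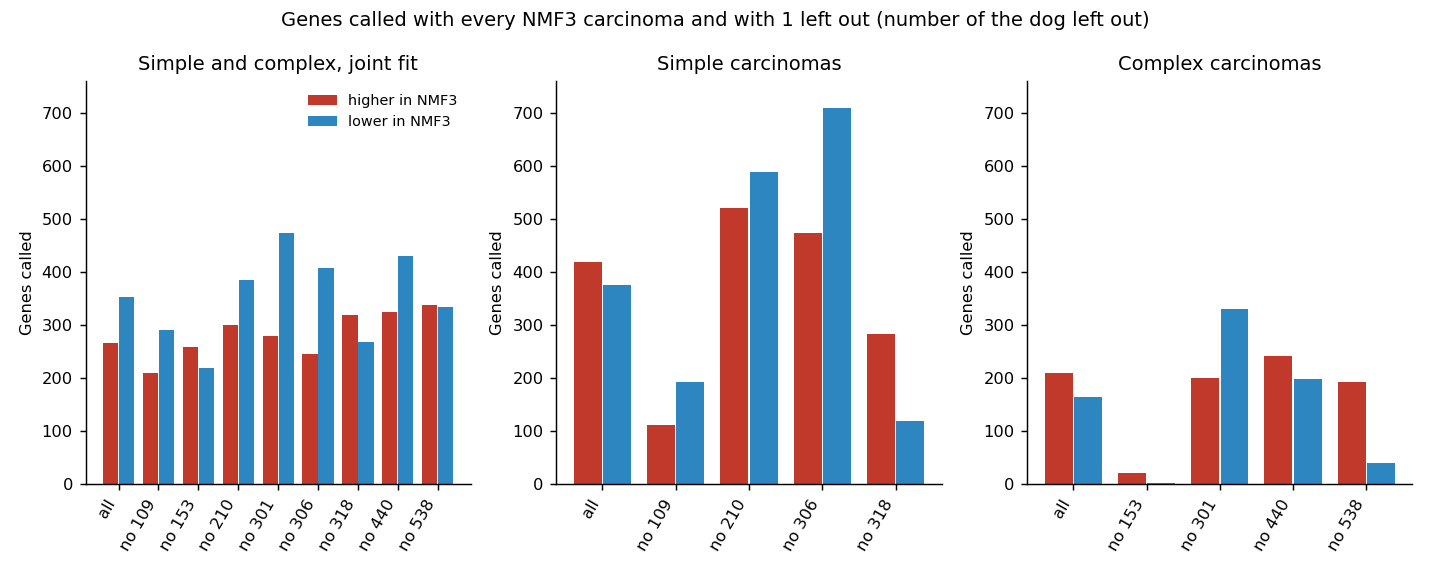
Number of genes called higher (red) and lower (blue) in NMF3 than in NMF1 carcinomas, with all NMF3 carcinomas and with 1 left out, in the joint fit, in simple and in complex carcinomas. Bars start at 0 and the label under each pair is the number of the dog left out. Calls in complex carcinomas drop to 21 and 2 without CMT-153.

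Within surgery years, the 6 NMF3 carcinomas of 2017 against 43 NMF1 carcinomas called 0.889% of genes higher and 0.813% lower, and 92.2% and 94.9% of these were shared with the joint fit. The 2 of 2016, CMT-109 and CMT-153, against 13 gave 338 and 519, with 99 and 176 shared. No gene called in the joint fit was called in the opposite direction within either year or when a single tumor was left out. All these fits reuse tumors of the joint fit, so this outcome was largely set by the overlap and is no sign of stability. Both NMF3 tumors of 2016 are basal, so the comparison within that year holds no non-basal NMF3 carcinoma.

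Whether the cluster difference itself differed with histology was tested by an interaction term. It was called for 92 of the 14483 genes, 0.635%, and for 66 of these the NMF3 difference was larger in simple than in complex carcinomas. Of the 92, 14 (15.2%) were among the joint calls, which are 4.29% of all genes tested. The 66 genes did not mark simple NMF3 carcinomas in general. Their mean was 3.58 above the NMF1 mean in CMT-318 and 3.51 in CMT-109, but 0.08 in CMT-210 and 0.02 in CMT-306. In the complex carcinomas it was 0.17 in CMT-301, -0.33 in CMT-440, -0.44 in CMT-538 and -0.67 in CMT-153. At least 1 above the NMF1 mean were 64 of the 66 genes in CMT-109 and 63 in CMT-318, 61 of them in both, against 8 in CMT-210 and 4 in CMT-306. The NMF1 carcinomas had 0 to 38 such genes, with a median of 1.5. The tumor with 38 was CMT-346, the complex carcinoma that is also nearest to CMT-109 and CMT-318 over all genes among the 72 carcinomas. Since these genes were chosen on the same tumors, their levels are a description. The count moved widely with single tumors. Without CMT-109 the interaction was called for 3 genes, without CMT-318 for 5, and without both for 4. Without CMT-153 or CMT-538 it was called for 0.373% or 0.380% of genes, and without CMT-210 or CMT-306 for 2.46% or 3.20%. With a pseudocount of 0.1 it was called for 16 genes.

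**Figure D3:**
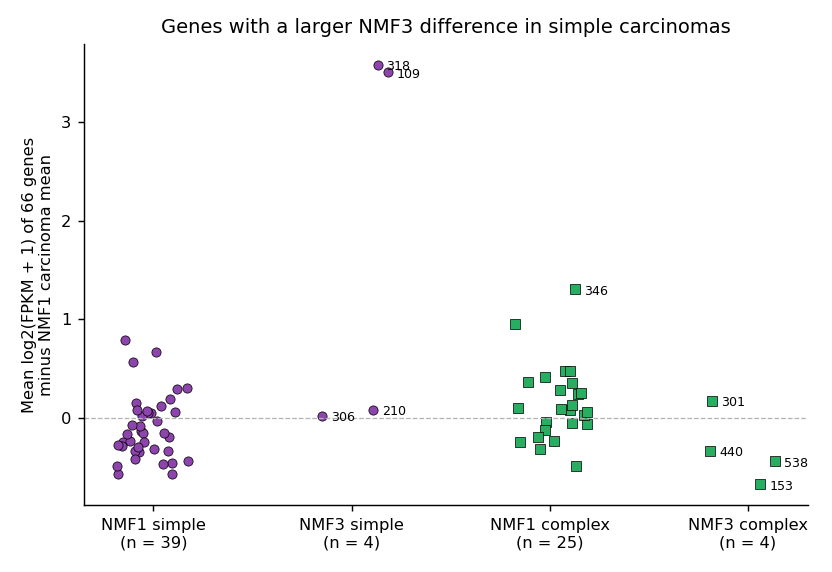
Mean difference of 66 genes from the NMF1 carcinoma mean (vertical axis, log2(FPKM + 1)) in the NMF1 and NMF3 carcinomas by histology. Points are tumors, and the NMF3 carcinomas and CMT-346 carry their dog numbers. CMT-109 and CMT-318 lie at 3.51 and 3.58 and the other 6 NMF3 carcinomas between -0.67 and 0.17.

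Of genes with the same direction in both histologies, ENSCAFG00000017018 was the most raised. Its values were 228 FPKM in CMT-318, 279 in CMT-538, 486 in CMT-440, 489.8 in CMT-210, 772 in CMT-306, 796 in CMT-109, 2563 in CMT-153 and 4062 in CMT-301. All 8 lay above the NMF1 median, and the highest were both complex carcinomas. The NMF1 carcinomas ran from 2.04 to 1715 FPKM with a median of 64.9, and 9 of the 64 exceeded the lowest NMF3 carcinoma. The log2 difference was 3.53 (SE 0.68, n = 8 and 64, adjusted p = 1.46e-04 by limma), with 3.45 in simple and 3.62 in complex carcinomas. The 3 benign NMF3 tumors had 2557 to 4914 FPKM. Of the sarcoma-like NMF3 tumors, the 3 osteosarcomas were listed at 0, which in this table is no reliable sign of absence. The other 4 had 110 (spindle cell carcinoma), 1477 (fibrosarcoma), 4054 and 6329 FPKM (carcinosarcomas). The 23 NMF2 carcinomas had a median of 45.8 FPKM. Normal tissues of the 25 NMF1 dogs had 19.1 to 3654 FPKM with a median of 121, so high levels were not limited to NMF3 tumors. The call was lost in 1 of 27 alternatives, the tumors of 2016 alone (4.63, adjusted p = 0.0528 by limma).

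The second raised gene, ENSCAFG00000015054, followed a different pattern. It had 4161 FPKM in CMT-109, 141 in CMT-318, 139 in CMT-306, 111 in CMT-153, 13.9 in CMT-301, 5.51 in CMT-440, 2.05 in CMT-538 and 0.992 in CMT-210. Only 6 of the 8 exceeded the NMF1 median of 2.20 FPKM, and 4 of the 8 exceeded the NMF1 maximum of 108 FPKM. The log2 difference was 3.29 (SE 0.69, adjusted p = 4.68e-04 by limma, and 0.0493 by the rank test without the histology covariate). It was 4.92 in simple and 1.57 in complex carcinomas, the latter not called (adjusted p = 0.377), and the difference between histologies of 3.35 was not called either (adjusted p = 0.238). Without CMT-109 and CMT-318 together it was 1.78 and no longer called (adjusted p = 0.114), and among the tumors of 2017 alone it was 1.79 (adjusted p = 0.155). In the sarcoma-like and benign NMF3 tumors it ran from 0.859 to 54.4 FPKM.

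Of the 2 lowered genes chosen by size, ENSCAFG00000012532 had the smaller standard error. It had 31.0 FPKM in CMT-210, 27.7 in CMT-301, 21.3 in CMT-440, 20.8 in CMT-306, 12.0 in CMT-109, 2.02 in CMT-538, 1.48 in CMT-318 and 0.639 in CMT-153. The 4 non-basal tumors were thus the highest 4. The NMF1 carcinomas had a median of 99.2 FPKM (6.57 to 370.0), and 58 of the 64 exceeded the highest NMF3 carcinoma. The log2 difference was -3.09 (SE 0.40, adjusted p = 1.20e-07 by limma), with -3.18 in simple carcinomas (adjusted p = 2.51e-05) and a call in the same direction in complex carcinomas (adjusted p = 0.0130). It kept its call in every alternative of the joint fit that was run. The sarcoma-like NMF3 tumors had 0.647 to 90.5 FPKM and the benign ones 0.183 to 39.5 FPKM.

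ENSCAFG00000028626 was lowered from a very high level. It had 4660.0 FPKM in CMT-210, 2973 in CMT-301, 2183 in CMT-306, 457 in CMT-109, 248 in CMT-538, 222 in CMT-440 and 99.2 in CMT-153, and was listed at 0 in CMT-318. The NMF1 carcinomas had a median of 4523 FPKM (12.1 to 34730), and 7 of the 8 lay below it. The log2 difference was -3.37 (SE 0.93, adjusted p = 0.00843 by limma). It was not called within simple (-3.66, adjusted p = 0.0944) or complex carcinomas (-3.08, adjusted p = 0.0605) alone. Without CMT-318, where it was listed at 0, it was -2.14 and lost its call (adjusted p = 0.126). Among the tumors of 2017 and of 2016 it was -3.30 and -3.93, not called (adjusted p = 0.0882 and 0.187).

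**Figure D4:**
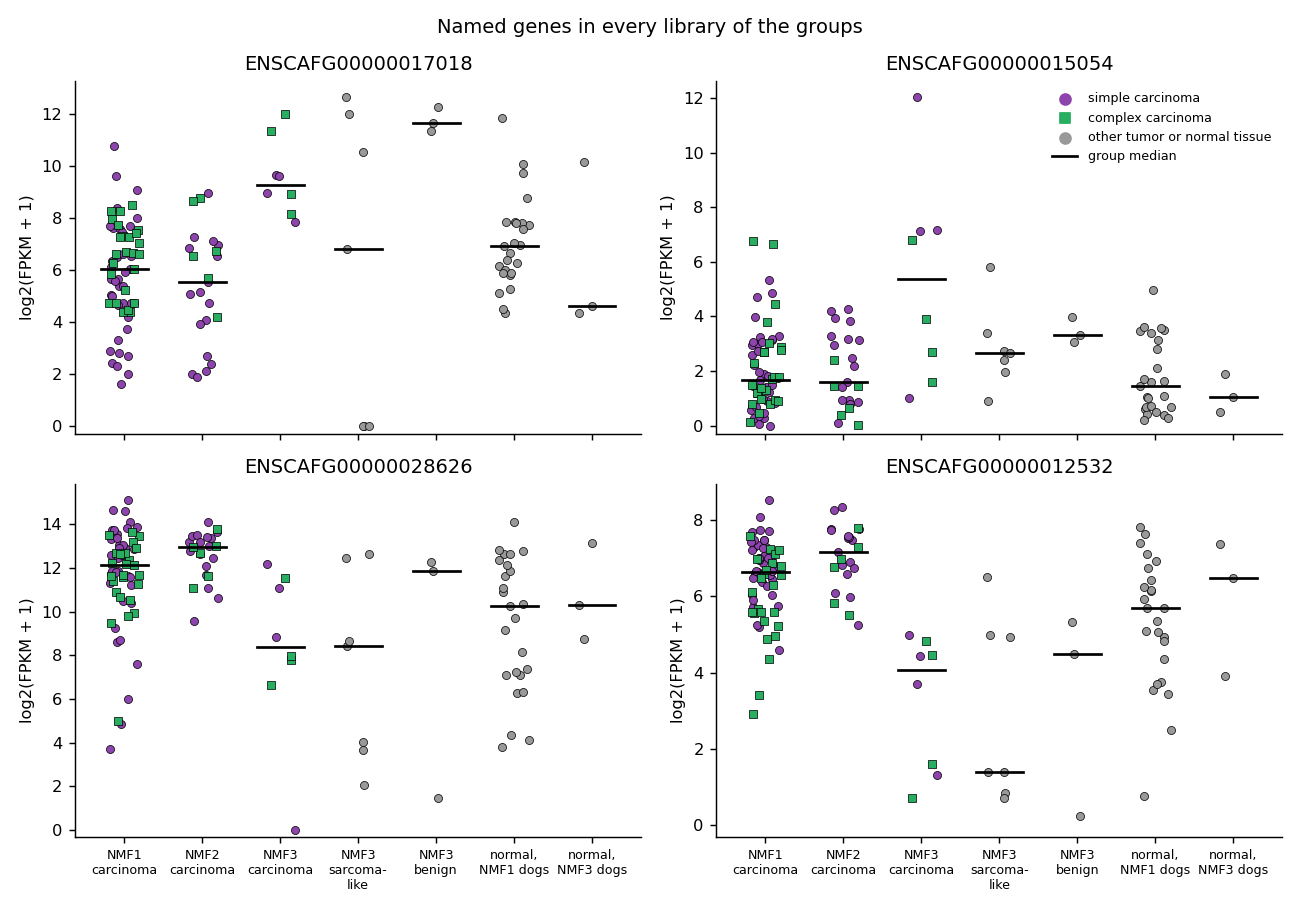
Level of the 4 named genes (vertical axis, log2(FPKM + 1)) in every library of 7 groups, 1 panel per gene. Points are libraries, with simple and complex carcinomas marked apart, and bars are medians. All 8 NMF3 carcinomas lie above the NMF1 median of 64.9 FPKM for ENSCAFG00000017018 and below that of 99.2 FPKM for ENSCAFG00000012532.

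Adjacent normal tissues set none of the calls above, but by the methods of the study they entered the factorization that made the clusters. Between the normal tissues of 3 NMF3 and 25 NMF1 dogs, limma called 0 of 14598 genes, 0%, with 958 at an unadjusted p under 0.05 and a smallest adjusted p of 0.605. This does not show that the tissues were alike, since the result turned on single dogs. Without the normal tissue of CMT-301, which scored highest of the 3, 1.49% of genes were called. Without CMT-210 it was 0.144% and without CMT-538 0.130%. The named genes had exact permutation p-values of 0.471 to 0.574 over 3276 arrangements of the dogs (two-sided, adjusted 0.574, smallest possible p = 3.05e-04).

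Tumor and own normal tissue were then set side by side, at first by a fit that did not pair them by dog. In the 3 NMF3 dogs, 111 genes were called higher and 1 lower in tumor than in normal tissue, 0.762% of the 14707 tested. In the 25 NMF1 dogs, 477 were called higher and 629 lower, 7.52%. With the dog as a block in the fit, the NMF3 dogs gave calls for 1.58% of genes, 25 of them lower. Without CMT-538 the unblocked share was 0.204%, without CMT-210 it was 3.31% and without CMT-301 it was 4.05%. The difference between both contrasts was called for 1 gene without the block and for 0 with it. ENSCAFG00000017018 was higher in tumor than in normal tissue in all 3 NMF3 dogs, with 489.8 against 23.5 FPKM in CMT-210, 4062 against 1120 in CMT-301 and 279 against 19.3 in CMT-538. Its difference of 3.32 was not called (adjusted p = 0.241, and 0.141 with the block). ENSCAFG00000012532 was lower in the tumors of CMT-210 (31.0 against 89.2 FPKM) and CMT-538 (2.02 against 164) but higher in that of CMT-301 (27.7 against 14.1). Both genes had been chosen on tumors that include these 3, so their values here are a description and no independent test.

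To keep the tumors that choose genes apart from those that describe them, the comparison was repeated in the dogs without normal tissue, 5 NMF3 against 39 NMF1 carcinomas. It called 342 genes higher, 2.37% of 14426, and 500 lower, 3.47%. The other 28 dogs, whose libraries set none of these calls, show where both lists stand. Their cluster labels, though, came from expression as well, normal tissues included. Between the tumors of the 3 NMF3 and 25 NMF1 dogs, the median difference was 0.62 over the higher list, with 83.9% of its genes positive against 45.0% of all genes tested. Over the lower list it was -0.59, with 8.40% positive. Between the normal tissues of the same dogs the medians were -0.07 and -0.13, against -0.19 over all genes.

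From normal tissue to tumor, the lists moved in opposite directions in the NMF1 dogs. Over the lower list the median tumor minus normal difference was 0.64, with 88.0% of its genes positive against 67.7% of all genes tested. Per dog the median over this list was positive in 21 of 25. Over all genes tested it was positive in 22 of 25, so this count does not set the list apart. The middle of the 25 dogs was 0.50 on the list and 0.12 over all genes. Over the higher list the median difference was -0.23, with 33.3% positive. Per dog it was negative in 16 of 25, against 3 of 25 over all genes. In the 3 NMF3 dogs the medians over the lower list were -0.47 (CMT-210), 0.23 (CMT-538) and 0.57 (CMT-301), where all genes tested had 0.10, 0.65 and 0.06. Over the higher list they were 0.48, 0.52 and -0.05. CMT-301 therefore differed from CMT-210 and CMT-538, and its normal tissue had the highest score of the 3, at 2.87. Normal tissues of the 25 NMF1 dogs ran from -0.26 to 4.43, so scores of this size also occurred beside NMF1 carcinomas. Most genes of the lower list were thus at a higher level in NMF1 carcinomas than in their own normal tissue. Between the tumors of the NMF3 dogs and the normal tissues of the NMF1 dogs, the median difference over this list was -0.0026, against 0.09 over all genes.

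**Figure D5:**
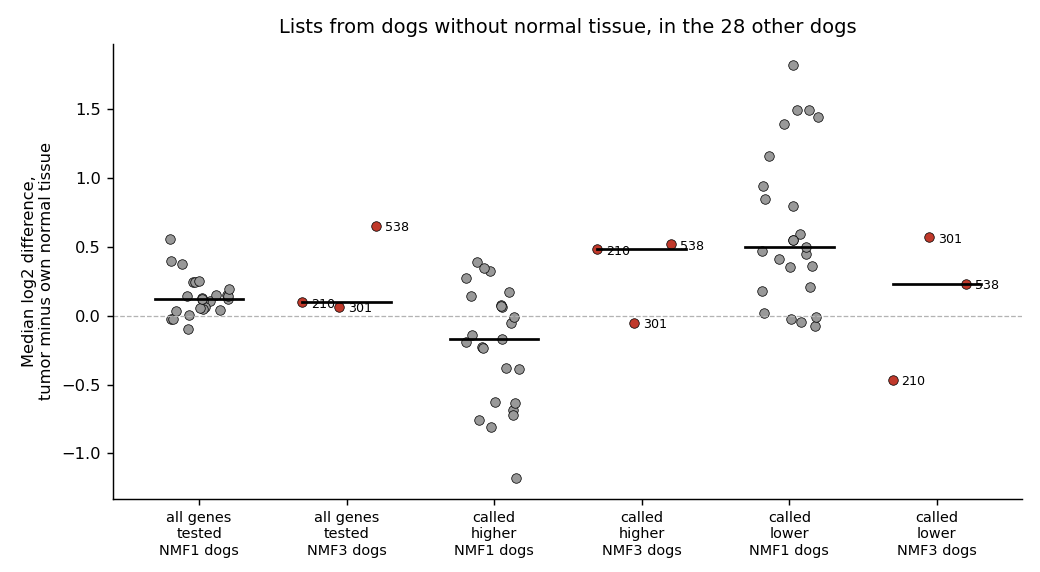
Median over genes of the log2(FPKM + 1) difference between a dog's tumor and its own normal tissue (vertical axis), for all genes tested and for the lists called higher and lower in the dogs without normal tissue. Points are the 25 NMF1 (gray) and 3 NMF3 dogs (red, with dog numbers), and bars are medians. Above 0 lie 21 of the 25 NMF1 dogs on the lower list and 22 of 25 over all genes tested. CMT-210 lies at -0.47 on the lower list.

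Clinical measures were compared between the 8 and the 64 by 6 tests, with p adjusted over them. Grade 3 was given to 3 of the 8 (37.5%, exact 95% interval 8.52% to 75.5%) and to 13 of the 64 NMF1 carcinomas (20.3%), and the difference did not pass the test (Fisher's exact test, two-sided p = 0.364, adjusted p = 0.729). Lymphatic invasion was seen in 0 of 8, which allows a share of up to 36.9% (exact 95% interval), and in 7 of 64 (10.9%, Fisher's exact test, p = 1.00). The NMF3 dogs had a mean age of 13.8 ± 2.19 years (SD, n = 8) against 12.2 ± 2.60 (n = 61), a difference of 1.52 years (exact permutation test, two-sided p = 0.127, adjusted p = 0.380). The Allred score of estrogen receptor staining was 5.62 ± 2.39 (SD, n = 8) against 5.80 ± 2.27 (n = 64, exact permutation p = 0.873, adjusted p = 1.00). HER2 staining scored 2.25 ± 0.707 (SD, n = 8) against 1.97 ± 0.908 (n = 64, exact permutation p = 0.530, adjusted p = 0.796). With 8 tumors, differences of this size were not detectable and are not shown to be absent.

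Survival depended on the record of follow-up. By the published annotation, which gives a time for 7 NMF3 and 59 NMF1 dogs with 4 and 18 deaths, deaths relative to those the log-rank test expects were 3.90 times as frequent in the NMF3 dogs (permutation test, 100000 resamples, two-sided p = 0.0171, adjusted p = 0.103). Among dogs followed for at least 30 days, 7 NMF3 with 4 deaths and 46 NMF1 with 16, it was 4.97 times (permutation p = 0.00659, adjusted p = 0.0395). This limit removed NMF1 dogs alone, some of which had died. By the follow-up in the sample labels, which count dogs lost to follow-up to a common date, 3 of 8 NMF3 and 13 of 64 NMF1 dogs had died and the ratio was 2.06 (permutation p = 0.263, adjusted p = 0.729). Both records also end at different times. CMT-440, among the 4 deaths in the annotation, died there at 428 days, and the labels give it as alive at 391 days, before that death. CMT-301 is dead in the annotation, with no time given, and lost to follow-up in the labels. The difference passed the adjusted threshold in only 1 of these 3 tests.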

How the data were processed

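RNA-seq libraries of canine mammary tumors and adjacent normal tissue were prepared from poly(A) RNA with the TruSeq kit and sequenced on an Illumina HiSeq. Per the labels and the methods of the study, the authors mapped reads to CanFam3.1 with TopHat2 2.0.9 and Bowtie2, using Ensembl annotation, and computed the deposited FPKM values with Cufflinks 2.1.1. FastQC 0.10.1 is also named. No scaling beyond FPKM is stated. Of 24580 identifiers in the table, 3857 had no value above 0 and 33 repeated the values of another. Of the 72 carcinomas no pair was identical, and the highest correlation was 0.978. Read numbers per gene are unknown, so no counting interval is given for a gene.

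Tissue was taken from the labels, and cluster, histology and basal class from the annotation published with the study. Histology and grade differ between both sources for 5 NMF1 carcinomas and for 0 NMF3 carcinomas. Grade, age, staining scores and lymphatic invasion are as labelled. Members and gene rules were chosen with earlier results of these data known. The dogs are separate animals.

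Fits used limma 3.58.1 with an intensity trend in R 4.3.3 on log2(FPKM + 1), over genes with a mean of at least 0.5 FPKM in the libraries of each comparison. The threshold was a difference of at least 1 with an adjusted p under 0.05. Genes to be named were called genes with a difference of at least 1 in the same direction in both histologies and a mean of at least 5 FPKM in the higher group, the 2 with the largest difference in each direction. Lists of cell type and pathway markers had been prepared but could not be applied without gene names (0 of 43286 RefSeq genes carried an Ensembl identifier). Tumor and normal tissue are paired by dog, according to the labels. Over 28 dogs the deviations of both tissues from their group means correlated with a mean of 0.195 (-0.230 to 0.442). Fisher's and exact permutation tests used scipy 1.17.1 and Python 3.11.15, and log-rank statistics lifelines 0.30.3. The fits were tested on simulated data, drawn with the spread of the NMF1 carcinomas in both groups. A larger spread in the NMF3 carcinomas was therefore not covered. Alternatives were another pseudocount, filter, scaling, covariate, reference, rank test, array weights, source of histology, and leaving out each NMF3 carcinoma. The limits to 1 surgery year, the omission of CMT-109 with CMT-318 and the lists from dogs without normal tissue were added after seeing the data.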

Additional observations from a re-analysis of the deposited data

Results flagged for a closer look

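Among 42 sets of values of the 8 NMF3 carcinomas, or of their 4 simple or 4 complex members, 5 held a value far from the others by Dixon's test. For separate sets of continuous, normally spread values, chance gives this in about 1 set of 20. Here the sets of 4 repeat tumors of the sets of 8, and stain scores are whole numbers with ties, so that rate is only a guide. Of these 5, 3 belong to CMT-318: 11254 genes at 1 FPKM or more (others 12317 to 12934), 58.7% of the summed FPKM in 50 genes (others 34.4% to 41.8%) and ENSCAFG00000028626 listed at 0 (others 6.65 to 12.2 on log2(FPKM + 1)). CMT-306 had a HER2 score of 3 where the other 3 simple carcinomas had 2. With 3 tied scores any other value passes this test, and 20 of the 64 NMF1 carcinomas also scored 3. CMT-301 had an Allred score of 2 where the other 3 complex carcinomas had 7 or 8.

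The NMF3 against NMF1 difference differed between simple and complex carcinomas for 92 genes by the interaction term. For the 66 with a larger difference in simple carcinomas, the mean over them lay 3.51 above the NMF1 mean in CMT-109 and 3.58 in CMT-318, and 0.08 and 0.02 in CMT-210 and CMT-306. The change from normal tissue to tumor differed between NMF3 and NMF1 dogs for 1 gene without the dog block and for 0 with it.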

How the results depend on the processing

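As percentages of the genes tested, higher calls in the joint fit (1.84%) became 1.70% (158 genes) among genes of at least 5 FPKM and 6.54% against NMF2 carcinomas in place of NMF1. Lower calls (2.44%) became 4.45% with a pseudocount of 0.1, 1.39% with array weights and 1.38% without CMT-109 and CMT-318. In 2017 alone they were 0.889% and 0.813%. The rank test gave 1.24% and 2.15%. The interaction (0.635%) was called for 0.110% with a pseudocount of 0.1, 1.08% after upper-quartile scaling and 0.0277% without CMT-109 and CMT-318, which left 0.888% in simple carcinomas. Leaving out 1 NMF3 tumor gave 1.45% to 2.33% higher and 1.52% (without CMT-153) to 3.28% lower calls, 2.102% to 8.19% in simple and 0.160% to 3.69% in complex carcinomas, and 0.0207% to 3.20% for the interaction. For normal tissue it gave 0.130% to 1.49%, and for tumor against normal in NMF3 dogs 0.204% to 4.05%. With the dog as replicate block, the NMF3 dogs gave 1.58% in place of 0.762% and the NMF1 dogs 7.66% in place of 7.52%, or 12.7% without the block at a pseudocount of 0.1. The survival ratio was 4.97 among dogs followed for at least 30 days, a limit that removed NMF1 dogs alone. The cause of these changes was not tested. Of 108 values of the named genes under alternatives, 101 kept direction and call, 7 lost the call and 0 reversed. Depth per gene is unknown, and 8 tumors, or 4 per histology, limit what the calls can show.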

Other observations

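The carcinomas of the cluster NMF4 entered no comparison. Their scores on the genes called between NMF3 and NMF1 carcinomas were 0.46 (CMT-259), 0.92 (CMT-308), 2.25 (CMT-613) and 2.35 (CMT-606), and the latter 2 lay above the lowest NMF3 carcinoma at 2.09.

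The most abundant gene took 10.9% of the summed FPKM in CMT-318, where the NMF1 carcinomas ranged from 2.00% to 10.0% with a median of 3.72%, and 3.64% to 7.90% in the other 7 NMF3 carcinomas. In 6 of the 8 the most abundant identifier was the same one. How often it led in the NMF1 carcinomas was not counted, so whether this sets the 8 apart cannot be told.

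Of the 1249 genes with a median of at least 50 FPKM in the 72 carcinomas, 18 were listed at exactly 0 in at least 1 of them. CMT-109, CMT-306 and CMT-318 each had 4 such genes, CMT-153 had 3 and CMT-210 had 1, while CMT-301, CMT-440 and CMT-538 had 0. Of the 64 NMF1 carcinomas, 46 had at least 1, and the highest number was 5.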
